A study of Mus musculus with 2 samples.

Results

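The miR-17-92 cluster is a group of miRNAs cut from a single primary transcript of mouse chromosome 14, and 7 of its mature miRNAs were followed here in exosomes. The members were chosen by name, miR-17-5p, miR-17-3p, miR-18a-5p, miR-19a-3p, miR-19b-3p, miR-20a-5p and miR-92a-3p, and they make up 7 of the 1881 mouse miRNAs that the arrays carry. KPC-exosomes came from a murine pancreatic cancer cell line established from a tumour of a mouse with the alleles KrasLSL-G12D/+ and Trp53LSL-R172H/+ and with Pdx1-Cre, in which the Pdx1 promoter drives recombination in the pancreas. These cells grew in RPMI-1640 with 20% fetal bovine serum (FBS). MPDC-exosomes, the control, came from a purchased murine pancreatic ductal epithelial cell line grown in DMEM with 10% FBS. Before collection both lines were kept in medium with exosome-free FBS, and the vesicles were isolated from the supernatants by differential centrifugation. The RNA of each preparation carried the dye Cy3 on its array, a 1-colour Agilent design for mouse miRNAs. Each group had 1 array, each group stands for 1 cell line in its own medium, and both arrays lay on the same slide. The difference between them therefore has no replicate check, and line, medium and preparation cannot be told apart. Precision is limited throughout by the number of arrays, and no test across samples was made.

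The cluster, also called oncomiR-1, is transcribed as a polycistron from the host gene Mir17hg and is activated by MYC and by E2F factors. It drives proliferation and holds back apoptosis in many tumours, and mice that lack it die at birth with lung, heart and B cell defects. A miRNA finds its targets mainly through its seed, bases 2 to 8, and the members fall into 4 classical seed families, to which the opposite strand of the miR-17 hairpin adds a further seed. Copies of the cluster lie on chromosome X (miR-106a-363) and, within Mcm7, on chromosome 5 (miR-106b-25).

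The mature sequences are shown because the seed grouping, and the near identity of several members, bear on what each probe reports. All 7 had an entry in RefSeq (GRCm38.p6), and they are written 5′ to 3′ with the seed in capitals.
mmu-miR-17-5p: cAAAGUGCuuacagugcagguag
mmu-miR-20a-5p: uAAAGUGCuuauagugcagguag
mmu-miR-18a-5p: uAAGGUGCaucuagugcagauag
mmu-miR-19a-3p: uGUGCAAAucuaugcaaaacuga
mmu-miR-19b-3p: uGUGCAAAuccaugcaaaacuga
mmu-miR-92a-3p: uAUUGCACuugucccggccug
mmu-miR-17-3p: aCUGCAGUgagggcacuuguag
The seed AAAGUGC was shared by miR-17-5p and miR-20a-5p, and GUGCAAA by miR-19a-3p and miR-19b-3p. The remaining members each had a seed of their own among the 7. The hairpin of Mir17, the only hairpin of which both arms are members, is given with the arms in capitals. It lies at chr14:115043671-115043754 on the plus strand of GRCm38.p6.
Mir17 hairpin: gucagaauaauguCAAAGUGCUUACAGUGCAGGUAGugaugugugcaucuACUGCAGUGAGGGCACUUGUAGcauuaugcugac
In the RefSeq table the 6 hairpins run in the order Mir17, Mir18, Mir19a, Mir20a, Mir19b-1 and Mir92-1 over 836 bases, separated by 35 to 96 bases, and the lncRNA gene Mir17hg overlaps Mir19b-1 and Mir92-1.

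All 7 members were detected on both arrays, and each of them was lower in KPC-exosomes. A probe counted as detected where its total signal exceeded 3 times the error given by the scanner software, and the signal of a miRNA is the sum over its detected probes, in arbitrary units before any normalization. Differences are given as log2 of the KPC-exosome over the MPDC-exosome signal. Their error is propagated from the scanner errors. For the members' probes these lie close to a multiplicative error of 10% that the software sets in advance. They thus measure neither the spread of the spots nor a repeat of the experiment.

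Within the miR-17 seed family, miR-17-5p, a repressor of the cell cycle inhibitor Cdkn1a and of E2f1, gave a signal of 74.8 ± 6.14 in KPC-exosomes and 941 ± 75.8 in MPDC-exosomes. Its log2 difference before normalization was -3.65 ± 0.17, or a signal 12.6-fold lower in KPC-exosomes. miR-20a-5p, which shares these targets, read 5083 ± 391 in KPC-exosomes and 47349 ± 3573 in MPDC-exosomes, with a log2 difference of -3.22 ± 0.16. The difference was 9.31-fold and did not depart from that of miR-17-5p by more than 2 scanner errors.

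miR-18a-5p, the sole member of its seed family in the cluster and a regulator of Ctgf and thrombospondin-1, had signals of 922 ± 76.6 in KPC-exosomes and 6959 ± 579 in MPDC-exosomes. Its log2 difference before normalization was -2.92 ± 0.17, or 7.55-fold. The pair with the miR-19 seed comes next, which carries much of the oncogenic activity of the cluster in B cell lymphoma. miR-19a-3p read 421 ± 31.7 against 5769 ± 431 in KPC-exosomes and MPDC-exosomes, and its log2 difference was -3.77 ± 0.15 (13.7-fold). For miR-19b-3p the signals were 2993 ± 271 and 35029 ± 3089 in the same order, with a log2 difference of -3.55 ± 0.18 (11.7-fold). The differences of miR-19a-3p and miR-19b-3p before normalization lay within 1 scanner error of each other. Their probes have only 1 mismatch to each other's target, so the readings may not be independent, which was not tested.

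miR-92a-3p, known for repressing the integrin subunit Itga5 and restraining vessel growth, had a signal of 2981 ± 270.4 in KPC-exosomes and 21114 ± 1872 in MPDC-exosomes. Its log2 difference of -2.82 ± 0.18 (7.08-fold) was the smallest of the 7 before normalization. The largest belonged to miR-17-3p, the strand opposite miR-17-5p and usually the less abundant product of that hairpin. Its signals were 106 ± 8.23 in KPC-exosomes and 2141 ± 161 in MPDC-exosomes, and the log2 difference was -4.33 ± 0.16, or 20.1-fold. Here its signal was above that of miR-17-5p on both arrays, 74.8 in KPC-exosomes and 941 in MPDC-exosomes. The 2 arms were read by different probes, and whether such signals compare in amount was not tested. The plot of the member signals shows each of these values, with all MPDC-exosome points above the KPC-exosome point of the same miRNA.

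**Figure D1:**
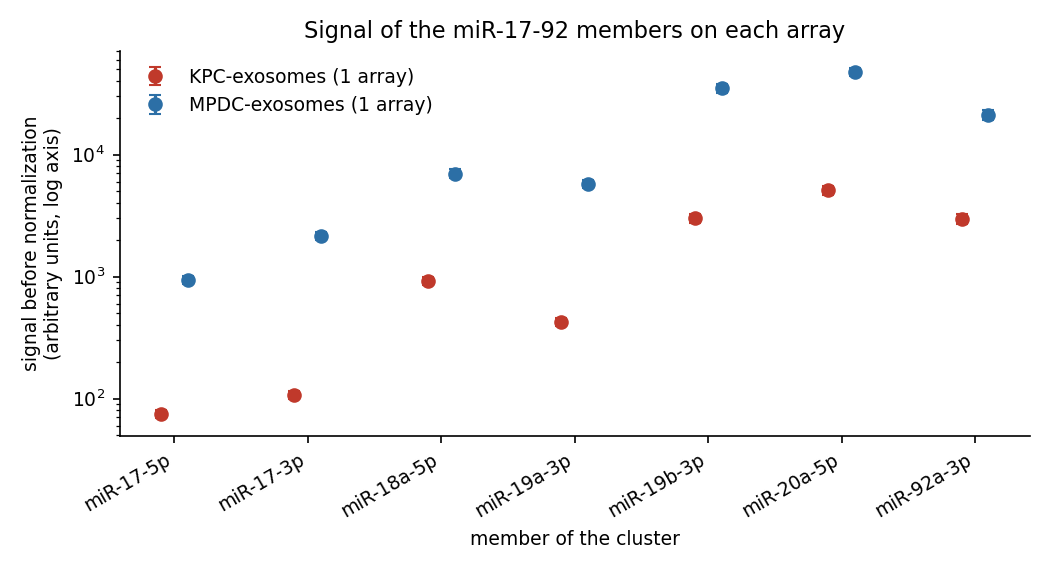
Signal before normalization (arbitrary units, log axis) of each member in KPC-exosomes (red) and MPDC-exosomes (blue), 1 array per group. Bars are the scanner errors, 7.47% to 9.07% of the signal, and the blue point lies above the red one for all 7 members, by 7.08-fold for miR-92a-3p up to 20.1-fold for miR-17-3p.

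Each member was read by 2 probes, short sequences complementary to the 3′ end of the miRNA, with 15 spots per probe on each array. The 14 probes map to chr14:115442916-115443718 in mm9, the build of the scanner files. For every one of the 14 probes the spot ranges of the arrays did not overlap. How often this held for the other probes of the array was not counted. Of the 726 miRNAs measured on both arrays, 73.4% were lower in KPC-exosomes by more than 2 scanner errors before normalization. The dimmest MPDC-exosome spot was 5.83-fold to 16.8-fold brighter than the brightest KPC-exosome spot, depending on the probe. The 15 spots of the 13-base probe for miR-17-5p, for example, read 174 to 223 (median 201) in KPC-exosomes and 2490.3 to 2829 (median 2625) in MPDC-exosomes. For the brighter miR-20a-5p probe they read 11034 to 13561 (median 12694) and 106176 to 127671 (median 120768). The coefficient of variation over the spots of a probe was between 3.47% and 8.82%. Spots of a probe share the labelled RNA, so this spread is technical.

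**Figure D2:**
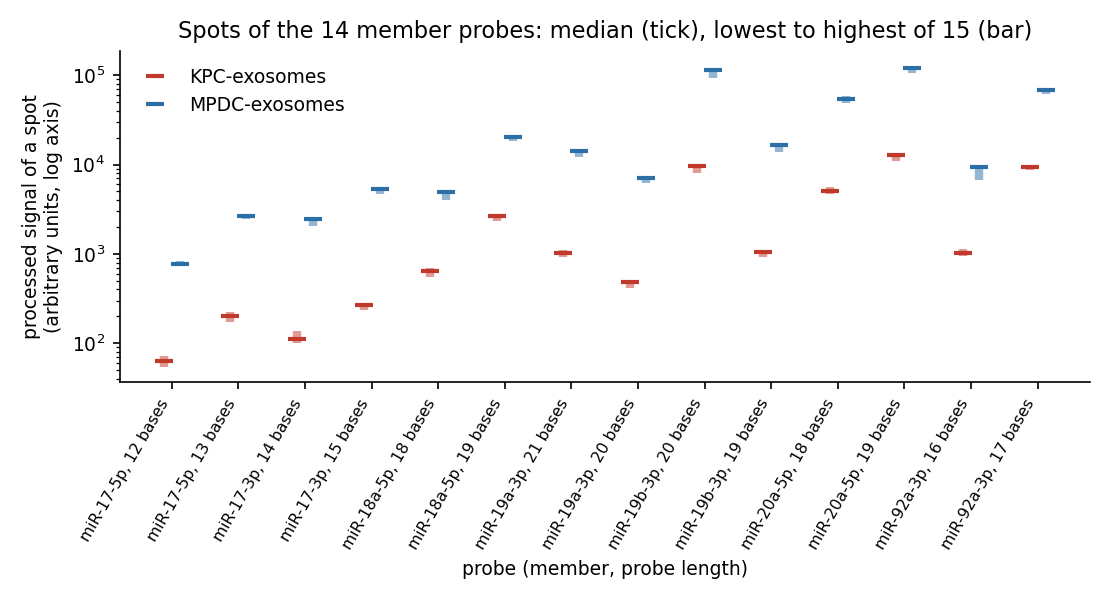
Processed signal of the spots (arbitrary units, log axis) for the 14 probes of the members, named by member and probe length. Ticks are medians and bars run from the lowest to the highest of 15 spots in KPC-exosomes (red) and MPDC-exosomes (blue). No red bar reaches a blue one, and the closest pair is 5.83-fold apart. The same was not counted for the other probes of the array.

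The pair of probes of a member gave differences that lay close together. The gap between them ranged from 0.03 on the log2 scale for miR-18a-5p to 0.42 for miR-19b-3p, and none of the 7 gaps exceeded 2 scanner errors. The scanner error of a gap was 0.29 to 0.30 for each member, as set by the error model, so this is a wide limit. For miR-19b-3p the 20-base probe gave -3.50 and the 19-base probe -3.92. For miR-92a-3p the values were -2.79 and -3.14, a gap of 0.35. Over all 14 probes the log2 difference before normalization ran from -4.41 to -2.79.

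Set against the scanner error, the members did not all differ by the same amount. This error is largely set in advance, and no repeat was made. Of the 21 pairs of members, 13 differed in their log2 difference by more than 2 scanner errors and 8 did not. The share among pairs of other miRNAs was not counted. In each of the 6 pairs with miR-17-3p the gap was over 2 scanner errors, at 0.55 to 1.51 on the log2 scale. The 2 probes of a single member already differed by up to 0.42. Ordered from the largest to the smallest difference, miR-17-3p was followed by miR-19a-3p, miR-17-5p, miR-19b-3p, miR-20a-5p, miR-18a-5p and miR-92a-3p. Of the 6 steps in this order, only that from miR-17-3p to miR-19a-3p was over 2 scanner errors. In the order of the hairpins, miR-17-5p, miR-18a-5p, miR-19a-3p, miR-20a-5p, miR-19b-3p and miR-92a-3p stood at -3.65, -2.92, -3.77, -3.22, -3.55 and -2.82. These values went up and down along the transcript and did not run in 1 direction. The probes of miR-17-5p, miR-19b-3p and miR-92a-3p also match copies on chromosome X, so their values are not those of this transcript alone.

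The opposite arms of the other hairpins, which the choice of members had left out, were measured on both arrays in 1 case of 5, in MPDC-exosomes only in 2 and on neither array in 2. Such passenger strands are mostly degraded when the leading strand is loaded into Argonaute. miR-20a-3p was measured on both arrays, with 5.09 ± 0.72 in KPC-exosomes and 67.7 ± 4.78 in MPDC-exosomes, with a log2 difference before normalization of -3.73 ± 0.23. miR-18a-3p was detected in MPDC-exosomes only, at 31.5 ± 2.69, which set against the lowest detected signal of the KPC-exosome array made it at least 22.4-fold lower there. miR-19a-5p was also detected in MPDC-exosomes only, at 3.002 ± 0.56, which made it at least 2.13-fold lower in KPC-exosomes. miR-19b-1-5p and miR-92a-1-5p were not detected on either array. None of these 5 arms was detected in KPC-exosomes alone, which was rare on the whole array. Among the 1881 miRNAs, 772 were detected in KPC-exosomes, 1031 in MPDC-exosomes and 726 on both arrays. After quantile normalization, which sets the arrays to a common distribution of signals, miR-20a-3p was 3.45-fold lower and miR-18a-3p at least 3.86-fold lower in KPC-exosomes, and no bound could be given for miR-19a-5p.

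The arms of a hairpin could be compared in 3 cases. The 3p arm showed the larger difference each time. The gap between miR-17-5p and miR-17-3p was 0.68 on the log2 scale, or 2.97 scanner errors. The probes of miR-17-5p also pair fully with miR-106a-5p of chromosome X, so this gap is not that of the Mir17 arms alone. Between miR-20a-5p and miR-20a-3p the gap was 0.51, or 1.87 scanner errors, and was thus not larger than 2 errors. For Mir18 the gap was at least 1.57, because miR-18a-3p has only a limit in KPC-exosomes.

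The members' differences have to be read against the array as a whole, since most miRNAs were dimmer in KPC-exosomes. Of the 1881 miRNAs, 772 were detected in KPC-exosomes, 1031 in MPDC-exosomes and 726 on both arrays. Of these 726, 591 (81.4%) had the lower signal in KPC-exosomes and the median log2 difference before normalization was -1.37. Less miRNA in the whole KPC preparation and less of a given miRNA cannot be told apart from these signals. The 4 spike-in controls, RNAs added during labelling and hybridization, differed by -0.31, -0.20, 0.24 and 0.38 on the log2 scale before normalization, a mean of 0.03. All 7 members were at least 4-fold lower before normalization, as were 253 of the 726 miRNAs (34.8%). All 7 were also lower by more than 2 scanner errors, which held for 73.4% of the 726.

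The median log2 difference of the members was -3.55 before normalization, 2.18 below the median of all measured miRNAs. miR-92a-3p, the member with the smallest difference, was still lower than 78.4% of the 726, and miR-17-3p was lower than 92.4%. Among the 174 miRNAs measured on both arrays whose mean log2 signal was at least that of the dimmest member, the median difference was -1.49. In this brighter set, 55 of 174 (31.6%), the members included, were as low as miR-92a-3p or lower. The members thus sat in the lower part of the distribution without forming its edge, as the plot of all measured miRNAs shows.

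**Figure D3:**
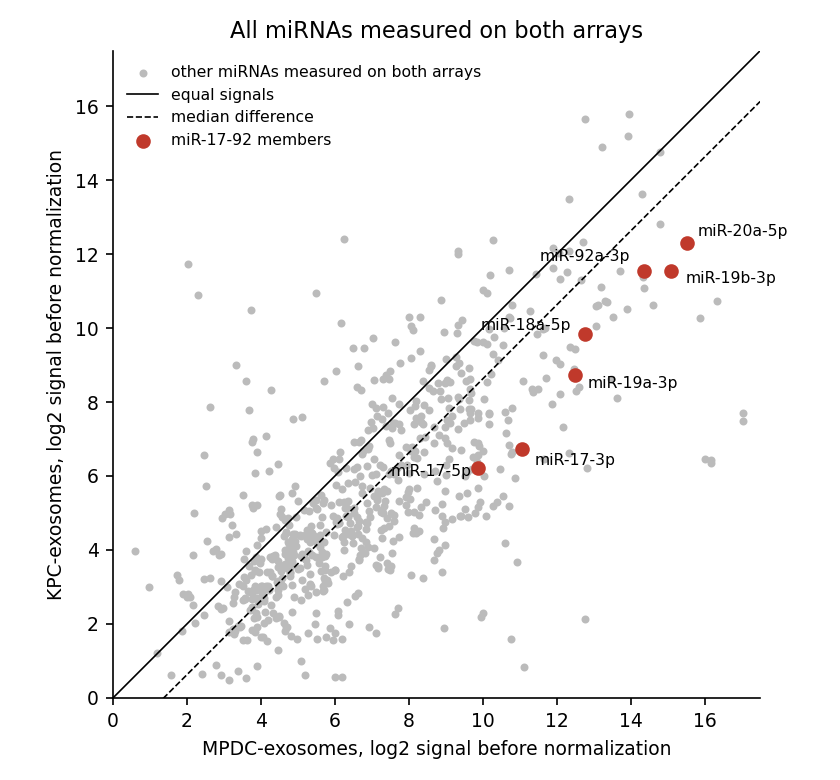
Log2 signal before normalization in MPDC-exosomes (horizontal) and KPC-exosomes (vertical) for the 726 miRNAs measured on both arrays. The solid line marks equal signals and the dashed line the median log2 difference of -1.37; all 7 members (red) lie below the dashed line, at differences of -2.82 to -4.33.

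The authors compared the arrays after normalization, and their deposited log2 values were matched to within 1.11e-05 by quantile normalization, which gives both arrays the same distribution of signals. On that scale all 7 members stayed lower in KPC-exosomes and 5 of them were at least 2-fold lower. The background for this count was 155 of the 726 miRNAs measured on both arrays (21.3%), or 460 of the 1077 detected on at least 1 array (42.7%). Among the 174 brighter miRNAs it was 54 (31.0%). At least 4-fold lower were 2 members, miR-17-3p and miR-19a-3p, and 76 of the 726 (10.5%).

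After quantile normalization the largest log2 differences were those of miR-17-3p at -2.71 (6.53-fold), miR-19a-3p at -2.14 (4.42-fold) and miR-17-5p at -1.97 (3.90-fold). miR-18a-5p followed at -1.34 (2.52-fold) and miR-19b-3p at -1.21 (2.31-fold). The members that fell short of 2-fold were miR-92a-3p at -0.75 (1.68-fold) and miR-20a-5p at -0.61 (1.53-fold). Normalization moved the members by unequal amounts, from 1.58 for miR-18a-5p to 2.61 for miR-20a-5p on the log2 scale, and miR-18a-5p came to stand below both miR-19b-3p and miR-20a-5p, which it had not before. The members' median was -1.34 and that of all 726 miRNAs 0.53, which left the members 1.86 below. Under the same normalization the 4 spike-in controls had log2 differences of 1.18 to 2.43, each with the higher value in KPC-exosomes.

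All 7 members were lower in KPC-exosomes under each of the 11 alternatives, of which 6 changed the normalization. With no normalization, with scaling by the spike-in controls, and with scaling by a percentile or the median, all 7 were at least 2-fold lower. The same held for 58.8% of the 726 measured miRNAs with no normalization and 59.9% with the spike-in controls. With scaling it held for 24.9% by the median, 26.3% by the 75th percentile of commonly detected miRNAs and 21.6% by that of all miRNAs. With no normalization the members' median lay 2.18 below the median of all measured miRNAs on the log2 scale. Scaling shifts every miRNA by the same amount, so it could not change this distance and does not test it. The deposited values repeat the quantile normalization and do not test it either. Under the settings that could change the distance it was not above 2.18. It was smallest, at 1.77, with background correction before quantile normalization. miR-20a-5p and miR-92a-3p are therefore the members whose 2-fold call depended on the normalization, and the plot of the differences by normalization shows both crossing that line.

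**Figure D4:**
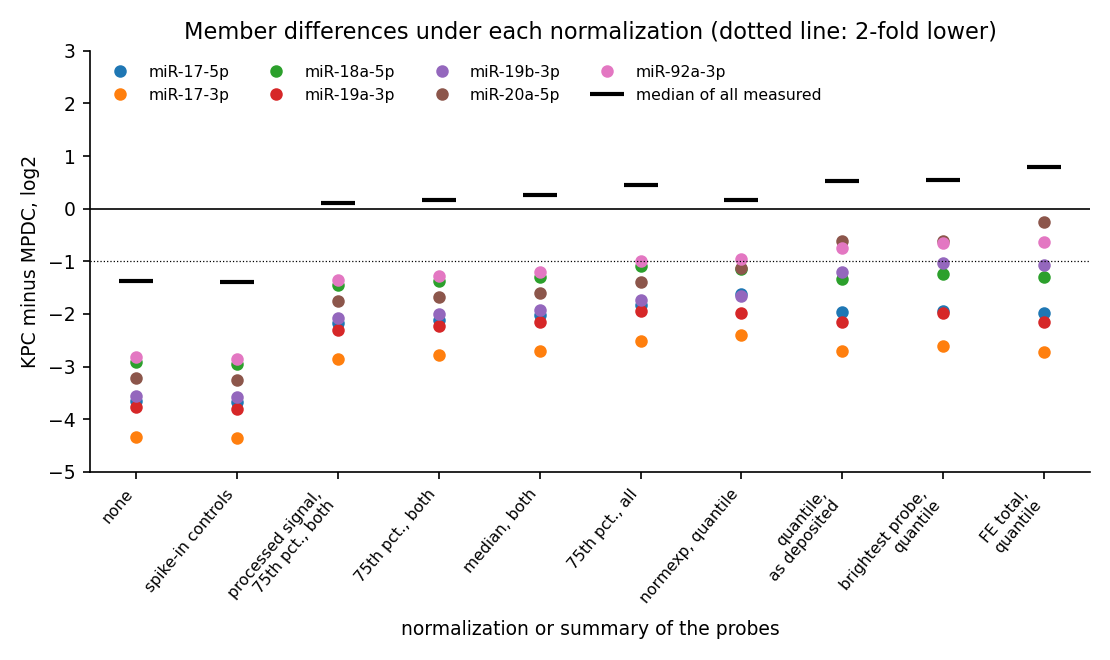
Log2 difference (KPC-exosomes minus MPDC-exosomes) of each member (coloured points) and the median of all 726 measured miRNAs (black bars) under 10 ways of normalizing or summing the probes. Every point lies below 0 and below the black bar of its column, and the points above the dotted 2-fold line after quantile normalization are miR-20a-5p at -0.61 and miR-92a-3p at -0.75.

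Some members could not be separated from copies elsewhere in the genome. The probes of miR-17-5p, miR-19b-3p and miR-92a-3p have a further position on chromosome X, between 50095073 and 50095706 in mm9, where the miR-106a-363 cluster lies. miR-19b-3p and miR-92a-3p are made identically from both places. For miR-17-5p the second position is miR-106a-5p, which has no signal of its own on the array. The short probe CTACCTGCACTG pairs with 12 bases at the 3′ end of both, and the pairing bases are in capitals below, with miR-20a-5p for comparison.
mmu-miR-17-5p: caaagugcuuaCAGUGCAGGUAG
mmu-miR-106a-5p: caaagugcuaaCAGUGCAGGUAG
mmu-miR-20a-5p: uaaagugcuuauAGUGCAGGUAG
The 13-base probe also pairs fully with both, so the value given for miR-17-5p is the sum of miR-17-5p and miR-106a-5p. Both probes have 1 mismatch to miR-20a-5p and 1 to miR-20b-5p. The probes of miR-20a-5p have 1 mismatch to miR-17-5p and 1 to miR-20b-5p, and those of miR-19a-3p and miR-19b-3p have 1 mismatch to each other's target. The part of such near matches in the signals was not tested. No mature mouse miRNA of the RefSeq table other than miR-17-3p matched its probes with 2 mismatches or fewer.

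The probes of miR-18a-5p have 2 mismatches to miR-18b-5p, its relative on chromosome X with the same seed, and what miR-18b-5p adds to their signal was not tested. miR-18b-5p itself was not detected in KPC-exosomes, where miR-18a-5p read 922. In MPDC-exosomes miR-18b-5p read 849 ± 75.5, which made it at least 604-fold lower in KPC-exosomes before normalization, against 7.55-fold for miR-18a-5p.

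Other miRNAs with the members' seeds had differences on both sides of those of the members. Seeds could be read for the 1608 of the 1881 miRNAs that had a mature sequence in the RefSeq table, and the counts by seed cover these alone. The seed AAAGUGC was found in 4 others, of which 3 were measured on both arrays. miR-20b-5p from chromosome X read 1239 in KPC-exosomes and 60138 in MPDC-exosomes (-5.60 ± 0.15), and miR-93-5p read 162 and 4581 (-4.83 ± 0.18). miR-106b-5p, from the same transcript as miR-93-5p, read 2971 and 13404 (-2.17 ± 0.17). The log2 differences of miR-17-5p and miR-20a-5p, -3.65 and -3.22, fell between these values. The probes of miR-20b-5p have 1 mismatch to miR-20a-5p, and those of miR-20b-5p and miR-106b-5p have 2 to miR-17-5p. What such near matches add to the signals was not tested. The sequences of miR-20b-5p, miR-93-5p and miR-106b-5p follow, with the seed in capitals.
mmu-miR-20b-5p: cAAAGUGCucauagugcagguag
mmu-miR-93-5p: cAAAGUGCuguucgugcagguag
mmu-miR-106b-5p: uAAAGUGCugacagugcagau

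The seed of miR-92a-3p, AUUGCAC, was found in 5 others of the 1608 miRNAs. miR-25-3p of the miR-106b-25 cluster had a log2 difference of -2.66 ± 0.19 before normalization, close to the -2.82 ± 0.18 of miR-92a-3p. The probes of miR-92a-3p have 2 mismatches to miR-25-3p and 2 to miR-92b-3p, whose part in their signal was not tested. miR-32-5p was lower by more, at -5.61 ± 0.45 with only 1.49 in KPC-exosomes, and miR-363-3p and miR-367-3p were detected in MPDC-exosomes only. miR-92b-3p, with 15.7 in KPC-exosomes and 12.2 in MPDC-exosomes, was the exception with a difference of 0.37 ± 0.19. The miR-19 seed was found in no other of the 1608. Of the 9 arms of the miR-106a-363 cluster with a signal of their own, 2 were measured on both arrays, 5 were detected in MPDC-exosomes only and 2 on neither. Among all 1881 miRNAs, 1031 were detected in MPDC-exosomes and 726 on both arrays. Of the 6 arms of the miR-106b-25 cluster, 5 were measured on both arrays, with log2 differences of -4.83 to -1.98 before normalization. Their median of -2.29 was the value of miR-93-3p, a dim arm with 1.55 ± 0.46 in KPC-exosomes and 7.59 ± 0.89 in MPDC-exosomes. After quantile normalization the median of these arms was -0.26 and miR-93-3p stood at 2.47.

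**Figure D5:**
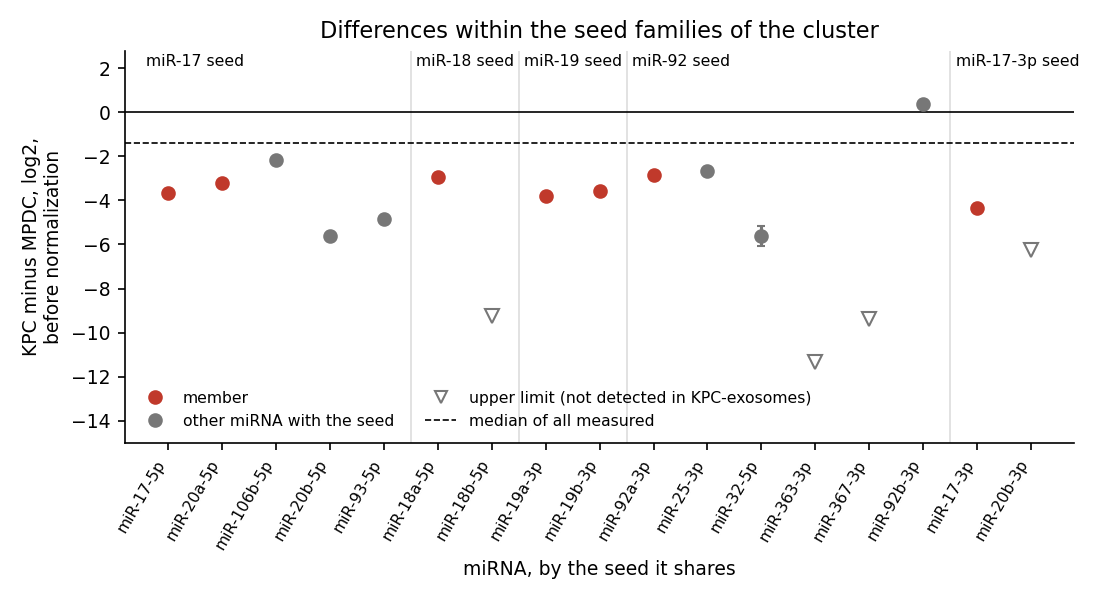
Log2 difference (KPC-exosomes minus MPDC-exosomes) before normalization for members (red) and other miRNAs with the same seed (grey), grouped by seed, with scanner errors as bars. Open triangles are upper limits for miRNAs not detected in KPC-exosomes, and the dashed line is the median of all measured miRNAs at -1.37; only miR-92b-3p, at 0.37, lies above 0.

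The core of the miR-17 seed, AAGUGC, also occurs shifted by 1 or more bases in the first 8 bases of 10 others of the 1608 miRNAs, mostly of the miR-290 and miR-302 clusters of embryonic stem cells. Of these, 5 were measured on both arrays, with a median log2 difference of -9.55 before normalization, and 4 were detected in MPDC-exosomes only. miR-294-3p, for example, read 82.4 in KPC-exosomes and 73780.3 in MPDC-exosomes. For comparison, 1031 of all 1881 miRNAs were detected in MPDC-exosomes and 726 on both arrays.

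Apart from the members, 94 miRNAs were at least as bright as the dimmest member on each array. The 3 of these whose difference before normalization was nearest to the members' median of -3.55 were miR-183-5p at -3.56, miR-30e-5p at -3.46 and miR-494-3p at -3.37. This likeness rests on 2 arrays and is a description. After quantile normalization they stood at -1.99, -1.81 and -1.47.

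The labelled cell types were checked with marker miRNAs. Their detection is read against that of all 1881 miRNAs, 772 in KPC-exosomes, 1031 in MPDC-exosomes and 726 on both arrays. All 5 epithelial markers of the miR-200 family were measured on both arrays, at a summed signal of 98.8 in KPC-exosomes and 1669 in MPDC-exosomes. Of 5 pancreas markers, KPC-exosomes alone held miR-217-5p, MPDC-exosomes alone held miR-148a-3p, and miR-216a-5p, miR-216b-5p and miR-375-3p were detected on neither array. The 4 mesenchymal markers were detected in MPDC-exosomes only, at a summed signal of 206. Of 4 haematopoietic markers 2 were measured on both arrays, miR-142a-3p at 188 in KPC-exosomes and 29.1 in MPDC-exosomes and miR-223-3p at 32.0 and 183.7 in the same order. KPC-exosomes alone held miR-142a-5p, at 28.4, and MPDC-exosomes alone held miR-150-5p, at 109. Of 4 erythroid and serum markers, miR-451a and miR-486a-5p were measured on both arrays, at a sum of 30.6 in KPC-exosomes and 153 in MPDC-exosomes. MPDC-exosomes alone held miR-122-5p, at 6.32, and miR-144-3p was detected on neither array. All 11 pluripotent-type markers were detected in MPDC-exosomes, at a sum of 484289.8 against 657 in KPC-exosomes, where 5 of them were not detected. Such markers are not those of a ductal epithelium, the labelled type of MPDC. They differed in the same direction as the members, and their part in the members' differences was not tested.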

How the data were processed

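Exosomal miRNAs were measured on 2 one-colour (Cy3) Agilent mouse miRNA arrays, 1 for KPC-exosomes and 1 for MPDC-exosomes, grouped by their GEO titles. The authors deposited the scanner output, whose signals are background-subtracted intensities (Feature Extraction 10.7.1.1 per the file headers, 9.1 per the submitters' processing notes), and log2 values per miRNA normalized in GeneSpring. Probe totals above 3 scanner errors were summed per miRNA, undetected miRNAs were set to 0.1, and log2 signals were quantile normalized with 21 control features. An undetected miRNA was bounded by the higher of its own summed signal and the dimmest detected signal on that array. The error model of the software sets a multiplicative error of 10% per probe. The named miRNAs were the members, the other arms, relatives by seed or copy of the cluster, the 3 nearest in difference, spike-in controls and marker lists. The members and lists were chosen with earlier results of these data known. Normalization and errors were tested on simulated data. Alternatives covered normalization, probe summary, background correction (normexp, offset 50) and thresholds. Python 3.11.15, numpy 2.4.6, pandas 2.3.3, R 4.3.3, limma 3.58.1 and matplotlib 3.10.9 were used.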

Additional observations from a re-analysis of the deposited data

How the results depend on the processing

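With 1 array per group, depth and replicate spread could not be assessed, and the members' scanner errors come mostly from the software's error model. No paired analysis was possible because each group has 1 sample. The members' median log2 difference of -1.34 became -3.55 with no normalization and -3.57 with the spike-in controls. It became -2.003 and -1.73 with the 75th percentile of commonly detected miRNAs and of all miRNAs, -1.92 with the median, -2.08 with the processed signal and -1.62 with normexp. The median of all measured miRNAs, 0.53, turned negative with no normalization (-1.37) and with the spike-in controls (-1.40). It was 0.17 and 0.25 with the 75th percentile and the median of commonly detected miRNAs, 0.10 with the processed signal, 0.16 with normexp and 0.79 with the software's total per miRNA. It was 0.30 over miRNAs detected on at least 1 array with limits included, and 0.16 over the brighter miRNAs. At a 4-fold threshold 2 members in place of 5 were called lower (10.5% of all measured, against 21.3% at 2-fold). Of the 5 other arms, 2 were at least 2-fold lower, 1 of them by its limit. The background was 21.3% of all measured, or 42.7% of the miRNAs detected on at least 1 array with undetected ones set to 0.1. With no normalization (58.8% of all measured) or the spike-in controls (59.9%) the count was 3. It was 0 with normexp (14.9%) or at a 4-fold threshold (10.5%). The shares of all measured leave out miRNAs with only a limit, which the counts of arms include. Over 77 values of single members under the alternatives, 40 moved by more than the scanner error, 37 did not, and 0 changed sign.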

Other observations

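The scanner files also hold a total signal per miRNA written by the software. For all 7 members it equalled the sum over the probes within 1% on both arrays. For some of the other arms it did not. In MPDC-exosomes it stood at 1134 for miR-18a-3p, whose probes summed to 31.7, and at 5772 for miR-19a-5p, whose probes summed to 4.08. For miR-20a-3p it was 26.3 against a probe sum of 4.81 in KPC-exosomes and 130.4 against 67.8 in MPDC-exosomes. The reason was not tested, and these totals entered no other value given for those arms than the alternative named for them.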
